A study of Mus musculus with 6 samples.

Results

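The expression of 10 genes of MHC class I antigen presentation was followed in the anterior prostate (AP) of mice. They were 4 class Ib heavy chain genes of the Q region (H2-Q10, H2-Q4, H2-Q5 and H2-Q7), the classical heavy chains H2-K1 and H2-D1, the light chain B2m, the peptide transporter subunits Tap1 and Tap2 and the bridging protein Tapbp. The 10 members were taken by gene symbol from 54532 named rows, and all 10 were present and passed the filter of a mean of at least 1 FPKM (fragments per kilobase of transcript, scaled to sequencing depth). They were chosen with the comparison of OEx against Ctrl in view, so their differences between these groups are given as a description, and the counts of calls among them are not used as a test.

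The series measured gene expression by RNA-seq in the whole AP of 6 male mice at 20 weeks of age, 3 in each group, to find the genes that change when Notch1 signaling is kept active in the prostatic epithelium. OEx mice carried Pbsn-Cre and 1 Rosa26 allele holding the Notch1 intracellular domain (N1ICD), which Cre switches on. The Probasin promoter drives this Cre in prostatic epithelial cells, so stromal, vascular and blood cells in the tissue did not carry an active transgene by design. Ctrl mice had the same N1ICD allele without Cre, and GEO's labels call them wild type.

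An MHC class I molecule is a heavy chain held together with beta-2 microglobulin, the product of B2m, and a short peptide. Proteasomes cut cytosolic proteins into peptides, the Tap1 and Tap2 transporter moves these into the endoplasmic reticulum, and tapasin (Tapbp) ties the transporter to empty class I molecules until a peptide fits. H2-K1 and H2-D1 present peptides on almost every nucleated cell, while H2-Q10 is best known as a secreted class Ib molecule of the liver.

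Of the 10 members, 9 lie on chromosome 17 and B2m lies on chromosome 2 (GRCm38, GENCODE). Tapbp was at chr17:33915899-33929292, H2-K1 at chr17:33996017-34000347, Tap1 at chr17:34187553-34197225, Tap2 at chr17:34203527-34216321 and H2-D1 at chr17:35262730-35267499. The Q region genes followed, with H2-Q4 at chr17:35379617-35385290, H2-Q5 at chr17:35394126-35397800, H2-Q7 at chr17:35439155-35443773 and H2-Q10 at chr17:35470089-35474563. B2m was at chr2:122147686-122153083. The annotation lists H2-Q5 as a polymorphic pseudogene, which is coding in some strains only.

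The sequences before the transcription start show how near H2-Q10 is to its neighbours and where it differs, since it is the member with the largest difference in level. The stretches below are from RefSeq (GRCm38.p6), read 5′ to 3′ on the strand of the gene, which is the minus strand for H2-K1 and the plus strand for the others. Capitals mark GGGGATTCCCC, taken as it stands in H2-K1 (the enhancer A sequence bound by NF-kB proteins), GTTTCACTTC, likewise from H2-K1 (the interferon response sequence of class I genes), GAAANNGAAA, TGACG (the centre of the cyclic AMP response element) and CCAAT, on either strand.
H2-Q10 (chr17:35469901-35470044): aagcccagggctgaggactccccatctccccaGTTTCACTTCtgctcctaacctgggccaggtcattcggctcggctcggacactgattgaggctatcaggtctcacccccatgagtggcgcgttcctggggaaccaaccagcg
H2-Q4 (chr17:35379431-35379574): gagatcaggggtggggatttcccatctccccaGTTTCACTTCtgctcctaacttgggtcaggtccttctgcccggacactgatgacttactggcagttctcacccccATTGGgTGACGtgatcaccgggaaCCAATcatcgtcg
H2-Q7 (chr17:35439009-35439152): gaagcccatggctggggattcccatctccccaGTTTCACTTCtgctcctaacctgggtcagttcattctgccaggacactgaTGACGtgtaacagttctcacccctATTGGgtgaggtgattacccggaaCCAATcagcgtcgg
H2-K1 (chr17:34000348-34000470): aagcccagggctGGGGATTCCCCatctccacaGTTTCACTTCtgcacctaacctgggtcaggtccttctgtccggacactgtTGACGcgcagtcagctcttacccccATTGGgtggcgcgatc
B2m (chr2:122147516-122147659): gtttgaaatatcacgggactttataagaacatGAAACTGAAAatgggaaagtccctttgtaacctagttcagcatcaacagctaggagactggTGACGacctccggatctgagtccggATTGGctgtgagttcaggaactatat

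Windows of 300 bases, from 250 before to 50 after the start, were given for 8 of the 10 members (not for Tap2 and H2-Q5). GTTTCACTTC was in the windows of H2-K1, H2-D1, H2-Q4, H2-Q7 and H2-Q10 and in 0.141% of the 27025 mouse promoters searched. GGGGATTCCCC was in H2-K1 and H2-D1, against 0.0222% of all promoters. H2-Q10 was the only one of the 8 windows without CCAAT, which 37.9% of all promoters held, and it had no TGACG (21.0% of all promoters), which Tapbp lacked as well. GAAANNGAAA was in B2m alone among the 8 (3.49% of all promoters). TGGGAA, the core letters bound by RBPJ, the DNA-binding partner of N1ICD, was in H2-Q10, H2-Q4, H2-Q7, B2m, Tap1 and Tapbp and not in H2-K1 or H2-D1, and 25.5% of all promoters held it. The enhancer A and interferon response letters are those of H2-K1, so their match there is given by the choice. These motifs were picked after the promoters had been read, and a match is a string of letters in a window, not a measured binding site.

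Between 14772005 and 18655462 reads per mouse were recovered from the FPKM values. Notch1, which the transgene extends, read 41.9, 47.6 and 78.9 FPKM in OEx and 5.18, 5.55 and 3.34 in Ctrl. Replicate 3 stood apart in each group, with a chi-square per gene of 50.4 to 86.7 against its group's other mice, where replicates 1 and 2 gave 3.67 in OEx and 2.93 in Ctrl. The summed level of 6 seminal vesicle genes was 14993 FPKM in Ctrl replicate 3 and between 2.38 and 3.99 in the other Ctrl mice, and 8 prostate epithelial markers summed to 25064 to 25232 FPKM in Ctrl and to 3228 to 6664 in OEx. Smooth muscle and fibroblast markers (8 genes, 4 of them called lower, beside 15.7% of all rows) summed to 1080.5 to 2308 FPKM in Ctrl and 369 to 569 in OEx. Of these 8, 2 had a higher mean in OEx. Col1a1 read 75.4, 83.7 and 6.04 FPKM in OEx against 11.4, 11.5 and 18.9 in Ctrl, and Col1a2 34.3, 33.9 and 2.95 against 6.72, 7.30 and 11.7. Endothelial markers (5 genes, 1 called lower) summed to 17.5 to 23.1 FPKM in Ctrl and 6.52 to 7.66 in OEx. The part of tissue makeup in the members' differences was not tested. The deposited scaling differed between groups, since the depth that the FPKM values had been divided by exceeded the reads recovered from them in OEx (ratio 1.22 to 1.34) and fell short of them in Ctrl (ratio 0.726 to 0.815), so ratios within a mouse, which need no scaling between mice, are given beside the levels.

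H2-Q10 was close to absent from the control AP and was among the abundant class I transcripts of the OEx AP. It read 187, 176 and 289 FPKM in OEx replicates 1, 2 and 3, and 0.349, 0.480 and 1.20 FPKM in the Ctrl replicates in the same order. Behind these levels were 16218, 17500 and 22715 reads in OEx against 19, 27 and 79 in Ctrl. Each OEx mouse was thus far above each Ctrl mouse, and the highest of its group was replicate 3 on both sides. The group means, 217 ± 62.6 (SD, n = 3) and 0.675 ± 0.456 FPKM (SD, n = 3), differed 322-fold, which on the log2(FPKM + 1) scale was 7.02 ± 0.25 (SE). Without Ctrl replicate 3 the fold of means was 525. The added 1 FPKM shrinks this log2 value, because the Ctrl levels were near or below 1 FPKM. As with each level here, measured in whole tissue, more cells of a type and more RNA per cell cannot be told apart.

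Within a mouse, H2-Q10 was set against H2-K1, the most abundant heavy chain. The ratio of their FPKM was 0.234, 0.219 and 0.423 in OEx and 0.000887, 0.00125 and 0.00303 in Ctrl. H2-Q10 made up 11.8%, 11.1% and 19.9% of the summed FPKM of 21 class I heavy chain genes in the OEx mice. In the Ctrl mice its share was 0.0427%, 0.0590% and 0.147%. Its place in the order of the 10 members by level moved from rank 9 in Ctrl, where its range overlapped that of H2-Q5, to rank 4 in OEx, between H2-D1 and Tapbp and overlapping neither.

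As markers of hepatocytes, 8 genes were listed. Alb, Fgb and Serpina1a were at 0 in all 6 mice, and the 8 genes summed to 3.52 to 4.73 FPKM in OEx and 4.29 to 5.66 FPKM in Ctrl. Among the others, Ttr read 0.617, 1.11 and 0.954 FPKM in OEx against 0, 0.190 and 0 in Ctrl, Hp 2.72, 1.93 and 0.310 against 0.0498, 0 and 1.02, and Apoa2 1.31, 1.63 and 2.17 against 4.17, 5.47 and 3.43. Of the 8, 3 had a higher mean in OEx, and their part in the H2-Q10 level was not tested.

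The other Q region members were low in Ctrl and split the OEx mice. H2-Q4, a class Ib heavy chain, read 30.4, 30.2 and 17.1 FPKM in OEx and 11.4, 10.5 and 12.3 in Ctrl. All OEx mice were above all Ctrl mice, with OEx replicate 3 nearest to the controls. The difference was 1.08 ± 0.22 on the log2 scale.

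H2-Q7, which encodes a Qa-2 molecule that can be anchored to the membrane by a lipid or secreted, read 7.17, 6.58 and 2.26 FPKM in OEx and 1.39, 1.23 and 2.53 in Ctrl. OEx replicate 3 was below Ctrl replicate 3, so the groups overlapped, and H2-Q7 was the only member of the 10 for which they did. Its log2 difference was 1.14 ± 0.38, and counts of 610, 642 and 174 reads in OEx against 74, 68 and 164 in Ctrl lay behind it.

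H2-Q5 was the lowest member in both groups. It read 4.22, 4.26 and 1.15 FPKM in OEx (134, 155 and 33 reads) and 0.402, 0.194 and 0.910 FPKM in Ctrl (8, 4 and 22 reads). The groups did not overlap, but OEx replicate 3 was much nearer to Ctrl replicate 3 than to the other OEx mice. The log2 difference was 1.402 ± 0.383.

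Reads of the Q region genes can be confused with each other or with those of other genes. Of all 100-base stretches of each gene's transcripts, 14.07% of H2-Q4, 14.01% of H2-Q5, 12.0% of H2-Q7 and 8.01% of H2-Q10 also occurred in transcripts of another gene, against 0.957% of H2-K1 and 3.59% of H2-D1. For H2-Q4 most of this was with the antisense gene Gm11131 (11.8%), and 1.16% was with H2-Q6. For H2-Q5 most was with H2-Q7 (11.4%), and H2-Q10 shared 5.81% with H2-Q7. H2-Q10 and H2-Q7 did not move together: the ratio of H2-Q10 to H2-Q7 was 26.1, 26.7 and 128 in OEx and 0.252, 0.389 and 0.473 in Ctrl. How the authors' counting treated reads with several matches was not given in the sources used here. The FPKM of 21 heavy chain genes summed to 1591, 1589.6 and 1458 in OEx and to 817, 813 and 815 in Ctrl. Weighted by length, which leaves the sum unmoved by reads exchanged among these 21 genes but not by reads dropped or given to other genes, the summed heavy chains were 1.04 higher in OEx on the log2 scale, and 0.71 higher when H2-Q10 was left out.

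**Figure D1:**
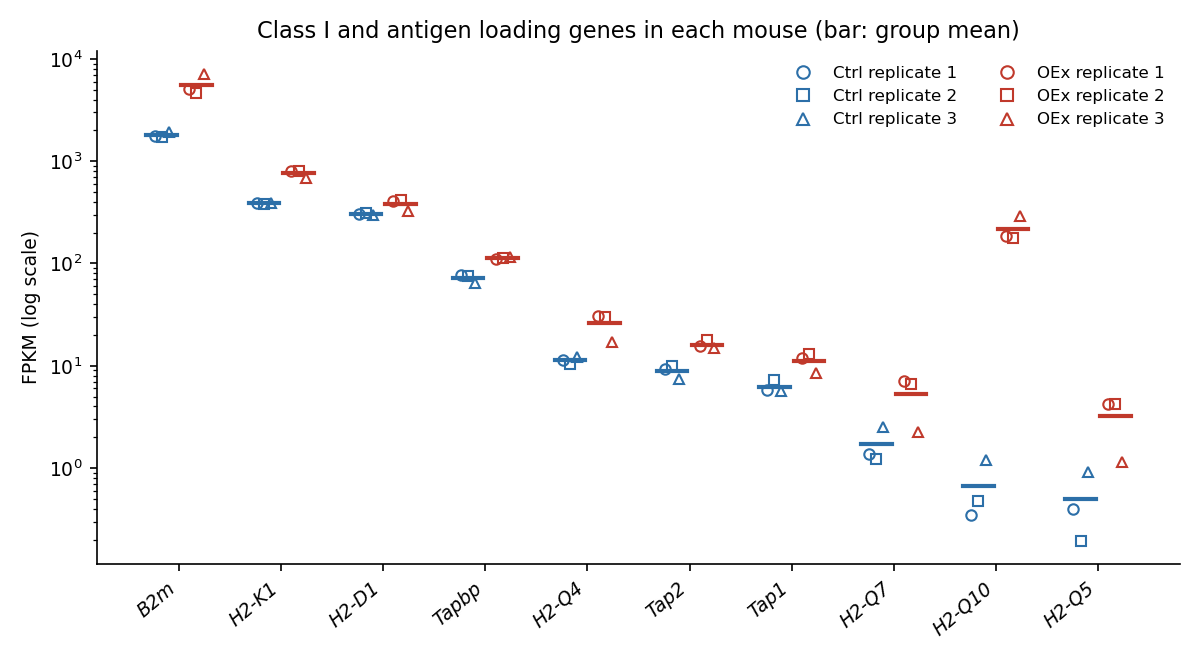
FPKM (log scale) of the 10 members in each mouse, ordered by their mean in Ctrl, with Ctrl in blue, OEx in red, a symbol per replicate and a bar at the group mean. H2-Q10 goes from under 1.20 FPKM in Ctrl to 176 FPKM or more in OEx, and for H2-Q7 the OEx replicate 3 value of 2.26 lies below the Ctrl replicate 3 value of 2.53.

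The classical heavy chains differed from each other. H2-K1 read 800.4, 803 and 685 FPKM in OEx and 394, 383 and 394 in Ctrl, so the OEx mean was 1.95 times the Ctrl mean with no overlap. H2-D1 read 412, 418 and 323 FPKM in OEx and 303, 312 and 295 in Ctrl, a ratio of means of 1.27, again with no overlap. The controls were tight for both genes, and OEx replicate 3 was the lowest of its group for both.

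H2-K1 and H2-D1 do the same work and sit on the same class I pathway, but their balance was not the same in the groups. The ratio of H2-K1 to H2-D1 within a mouse was 1.94, 1.92 and 2.12 in OEx and 1.2995, 1.23 and 1.34 in Ctrl. The lowest OEx ratio was above the highest Ctrl ratio, and the mean ratio was 1.55 times as high in OEx. On the log2 scale H2-K1 differed by 0.96 ± 0.10 and H2-D1 by 0.33 ± 0.12.

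B2m, the shared light chain, was the most abundant member in each mouse. It read 5038, 4597 and 7110.1 FPKM in OEx and 1749, 1726 and 1927 in Ctrl. All OEx mice were more than 2 times any Ctrl mouse, and replicate 3 was the highest in each group. The mean was 3.10 times as high in OEx, or 1.61 ± 0.19 on the log2 scale.

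The light chain was thus further apart between the groups than the classical heavy chains. Per mouse, B2m over the sum of H2-K1 and H2-D1 was 4.16, 3.76 and 7.05 in OEx and 2.51, 2.48 and 2.79 in Ctrl. Against all 21 heavy chains, with H2-Q10 included, it was 3.17, 2.89 and 4.88 in OEx and 2.14, 2.12 and 2.37 in Ctrl. Neither ratio overlapped between groups. No 100-base stretch of B2m occurred in another gene's transcripts (0 of 761), although Patl2 overlaps it on the opposite strand, and whether the counting used strand was not given in the sources used here.

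**Figure D2:**
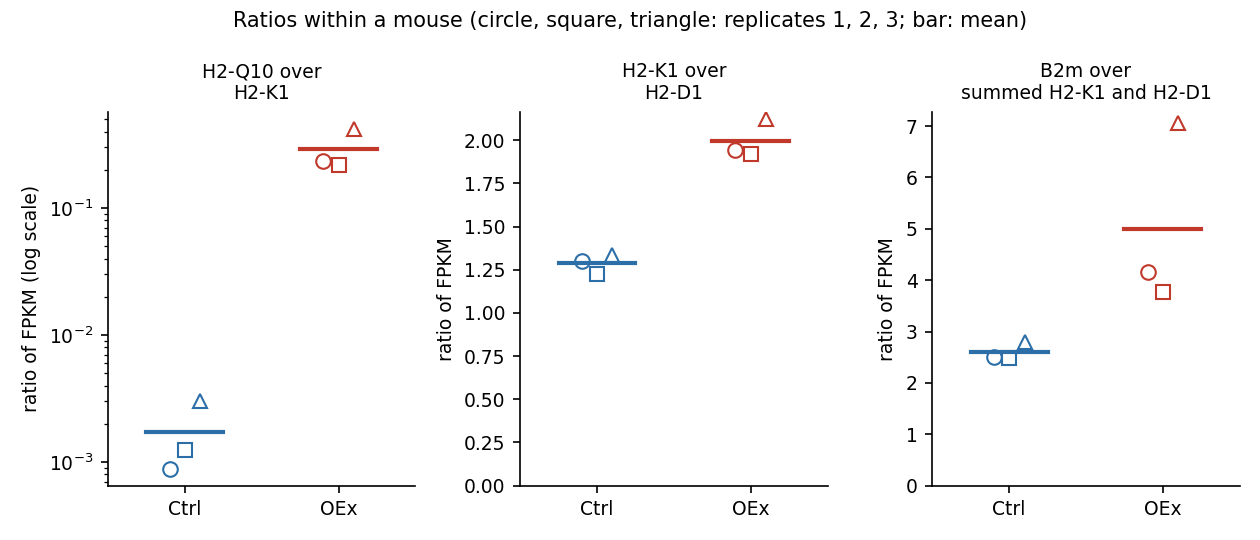
Ratios of FPKM within a mouse in Ctrl (blue) and OEx (red), with circle, square and triangle for replicates 1, 2 and 3 and a bar at the mean; the left axis is on a log scale. H2-Q10 over H2-K1 is at most 0.00303 in Ctrl and at least 0.219 in OEx, H2-K1 over H2-D1 goes from 1.34 or less to 1.92 or more, and B2m over the classical chains from 2.79 or less to 3.76 or more.

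The peptide loading members showed smaller differences. Tapbp, which encodes tapasin, read 110, 112 and 117 FPKM in OEx and 77.5, 76.0 and 64.1 in Ctrl. Tap2 read 15.5, 17.7 and 15.1 FPKM in OEx and 9.28, 9.91 and 7.41 in Ctrl. Tap1 read 11.9, 13.0 and 8.42 FPKM in OEx and 5.77, 7.22 and 5.71 in Ctrl. None of the 3 overlapped between groups, and their means were 1.56 (Tapbp), 1.81 (Tap2) and 1.78 (Tap1) times as high in OEx.

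The log2 differences were 0.63 ± 0.10 for Tapbp, 0.80 ± 0.12 for Tap2 and 0.73 ± 0.17 for Tap1. The transporter subunits work as a pair, and the ratio of Tap2 to Tap1 was 1.301, 1.36 and 1.79 in OEx and 1.61, 1.37 and 1.299 in Ctrl, ranges that overlapped. Tap1 overlaps Psmb9 on the opposite strand, and Tapbp shares 14.8% of its 100-base stretches with other genes' transcripts, 14.7% with the antisense gene Gm19412.

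Across the 10 members, all 10 differences were above 0, with a median of 1.02 on the log2 scale against -0.08 over all 12833 rows tested. In 9 of 10 the OEx mice were all above the Ctrl mice, as they were in 33.4% of all rows. By the study's criteria (a false discovery rate, FDR, under 0.05 and a fold over 2), 5 members were called higher (H2-Q10, H2-Q4, H2-Q5, H2-Q7 and B2m) and 0 lower, beside 12.9% and 15.7% of all rows. By the FDR alone 9 of 10 were higher, beside 30.7% of all rows. Because the members were chosen with this comparison known, nothing is read from these counts. The calls of H2-Q4, H2-Q5 and H2-Q7 were lost without OEx replicate 1 and without OEx replicate 2, which left 2 calls, H2-Q10 and B2m. H2-Q5 and H2-Q7 were lost without Ctrl replicate 2, leaving 3, and H2-Q7 without Ctrl replicate 1. H2-K1 passed the 2-fold criterion when OEx replicate 3 was left out (6 calls), and H2-Q7 was not called in limma-voom on the recovered reads.

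The scaling between mice set the size of the moderate differences. On the recovered library totals all 10 members were called higher (beside 31.5% of all rows called higher and 4.32% lower). With the 20 most abundant genes left out of the totals 8 were (beside 19.9% higher and 9.18% lower), and by the upper quartile 7 were (beside 18.5% higher and 10.2% lower). The median of all rows moved to 0.59, 0.22 and 0.17 in these scalings. Relative to that median the members' median was 1.10 as deposited and 1.12 to 1.13 in the others. H2-D1 was the lowest member in each of them, at 0.33 as deposited and 1.11 on library totals, and H2-Q10 the highest, at 7.02 and 7.54.

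**Figure D3:**
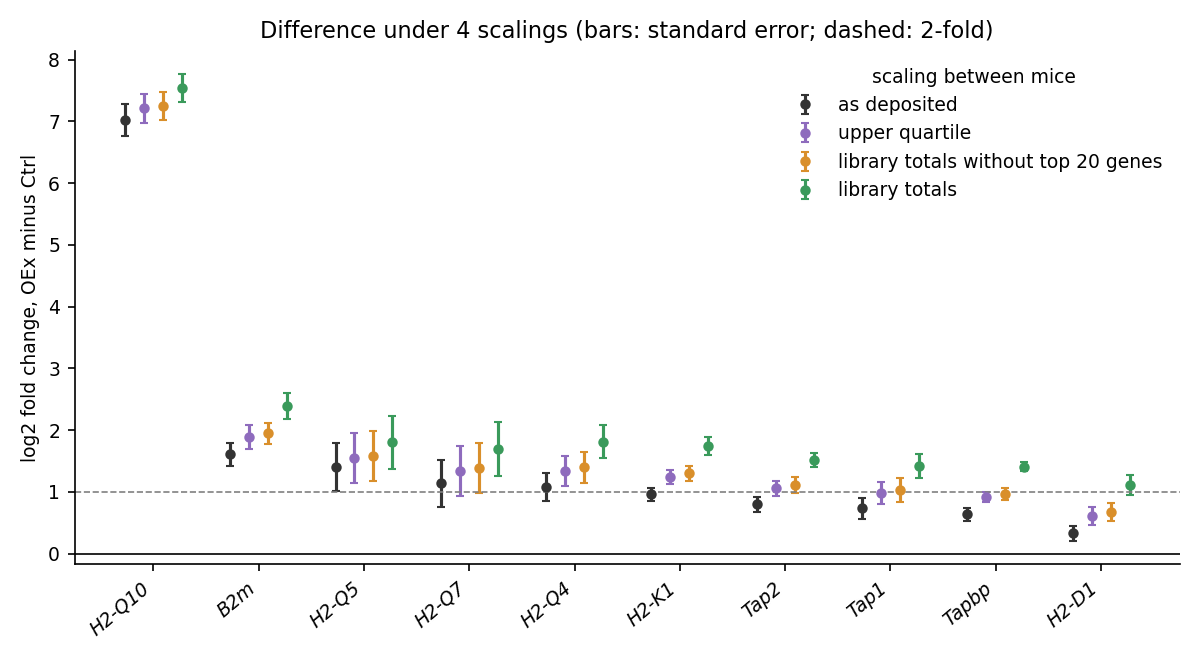
Log2 fold change (OEx minus Ctrl) of each member under 4 scalings between mice, with bars of 1 standard error and a dashed line at 2-fold. H2-Q10 stays at 7.02 or more, and H2-D1 goes from 0.33 as deposited to 1.11 on library totals.

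OEx replicate 3 differed from the other OEx mice in opposite directions for different members. Its level relative to the mean of replicates 1 and 2 was 1.59 for H2-Q10 and 1.48 for B2m, 1.05 for Tapbp, 0.909 for Tap2 and 0.854 for H2-K1. It was 0.778 for H2-D1, 0.675 for Tap1, 0.565 for H2-Q4, 0.329 for H2-Q7 and 0.271 for H2-Q5. In all, 7 members were lower in OEx replicate 3 than in both other OEx mice and 3 were higher, where 30.8% of all rows were lower.

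Markers of leukocytes, cells that Pbsn-Cre is not meant to reach, were likewise lowest in OEx replicate 3 among the OEx mice when summed. The summed level of 17 of them (Lyz2, by far the most abundant, was set aside after the values were seen) was 48.0 and 49.7 FPKM in OEx replicates 1 and 2 and 13.0 in OEx replicate 3, against 13.5, 12.8 and 20.9 in Ctrl. With Lyz2, which read 171, 155 and 7.79 FPKM in OEx and 22.05, 23.8 and 54.7 in Ctrl, 17 of the 18 markers were lowest in OEx replicate 3 among the OEx mice. Of the 18, 8 could be tested and 1 was called higher, beside 12.9% of all rows. This was Cd8a of cytotoxic T cells (log2 1.27, limma FDR 0.0113, n = 3 mice a group), with values of 3.40, 3.39 and 1.01 FPKM in OEx and 0.462, 0.488 and 0.271 in Ctrl. With a Ctrl mean of 0.407 FPKM, Cd8a passed the filter only through its level in OEx. Cd8b1 of the same list overlapped between groups and was not called (limma FDR 0.215). It read 1.79, 2.59 and 0.224 FPKM in OEx and 0.431, 0.729 and 0.444 in Ctrl.

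H2-Q10 and B2m were highest in OEx replicate 3, the OEx mouse in which 17 of 18 leukocyte markers were lowest. In that mouse alone H2-Q10 was 429 times and B2m 3.95 times the Ctrl mean, against 269 and 2.68 times for the mean of OEx replicates 1 and 2. H2-Q7, H2-Q4 and H2-Q5 were 1.32, 1.503 and 2.29 times the Ctrl mean in OEx replicate 3 and 4.01, 2.66 and 8.45 times in the other OEx mice. H2-K1 was 1.75 and 2.05 times, Tapbp 1.61 and 1.53 times and H2-D1 1.06 and 1.37 times. The part of leukocytes in the levels of the 10 members was not tested.

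**Figure D4:**
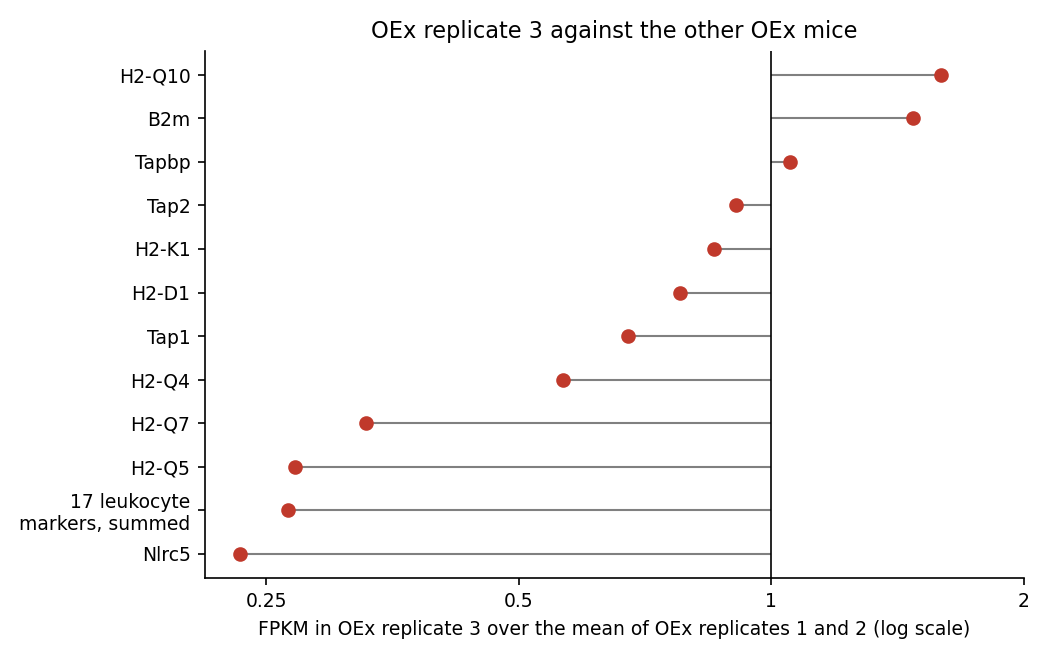
FPKM in OEx replicate 3 divided by the mean of OEx replicates 1 and 2 (log scale) for each member, for the regulator Nlrc5 and for the sum of 17 leukocyte markers, with the line at 1 for no difference. H2-Q10 (1.59) and B2m (1.48) lie to the right, and H2-Q7 (0.329) and H2-Q5 (0.271) lie with the leukocyte sum (0.265) and Nlrc5 (0.233).

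Around the members, 65 other genes of the class I pathway were listed, 62 were in the tables and 44 could be tested. Of these, 6 were called higher and 4 lower, beside 12.9% and 15.7% of all rows, with a median log2 difference of 0.12. On library totals 46 could be tested, and the split was 17 higher and 1 lower, beside 31.5% and 4.32% of all rows. The counts of calls by role that follow stand beside the same shares, and nothing is read from them. At the FDR alone the share of all rows higher was 30.7%, and the share lower is not given here. Nothing is read from those counts either.

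Among 8 other heavy chain genes tested, 0 were called by limma at 2-fold and 0 by limma-voom. At the FDR alone, as at an unadjusted p under 0.05, 4 were higher and 1 lower. Of all rows, 30.7% were higher at the FDR alone. H2-T23, which encodes Qa-1, the ligand of an inhibitory receptor of natural killer cells, was the most abundant of these at 86.8, 87.5 and 76.5 FPKM in OEx and 46.5, 45.3 and 47.2 in Ctrl (log2 0.83, limma FDR 0.000224), and at 1.60 on library totals it was called. H2-T22, a ligand of some gamma delta T cells, was on the other side at 22.5, 21.4 and 18.4 in OEx and 37.2, 37.3 and 38.1 in Ctrl (log2 -0.83, limma FDR 0.000347), and was at -0.07 on library totals. H2-Q6, a Q region gene next to H2-Q7, read 11.9, 12.1 and 3.29 FPKM in OEx and 3.53, 3.001 and 6.94 in Ctrl, and did not pass (limma FDR 0.195).

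Of the proteasome genes that feed the pathway, all 3 constitutive catalytic subunits were called lower and 1 of 5 immunoproteasome and activator genes higher. The constitutive subunits fell, Psmb5 from a mean of 185 to 59.5 FPKM, Psmb6 from 116 to 42.3 and Psmb7 from 23.03 to 9.55 (log2 -1.62, -1.43 and -1.19, limma FDR 2.3e-05, 5.0e-05 and 4.7e-05). On library totals the same subunits were at -0.85, -0.66 and -0.46 and were not called, and Psmb7 was also not called on totals without the 20 most abundant genes (-0.87) or by the upper quartile (-0.92). Psmb8, the interferon-induced subunit that takes the place of Psmb5, rose in all 3 OEx mice, which read 18.7, 18.2 and 13.0 FPKM against 7.04, 6.89 and 7.58 (log2 1.10, limma FDR 0.000683). Psmb9 and Psmb10, the other induced subunits, were at 0.70 and 0.07 and were not called, and the activator subunits Psme1 and Psme2 were at 0.05 and -0.35. Psme2 was lower at the FDR alone (limma FDR 0.0339) and at 0.41 on library totals.

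Of 7 folding, editing and trimming genes, 1 was called. Erap1, the aminopeptidase that trims peptides in the endoplasmic reticulum, rose from 3.79, 4.08 and 3.72 FPKM in Ctrl to 8.88, 8.85 and 10.9 in OEx (log2 1.11, limma FDR 0.000170). It was at 0.999, just under the fold criterion, when replicate 3 was left out of both groups. The chaperone Calr, which holds the heavy chain during loading, was at -0.92 with no overlap (limma FDR 0.00174) and was not called. It was called lower without OEx replicate 3 (-1.02) and was at -0.14 on library totals. Canx was at 0.01 (limma FDR 0.915). Lnpep of the same list was at 0.99 (limma FDR 0.000166), under the fold criterion. It was called higher on library totals (1.57), without the 20 most abundant genes (1.24) and by the upper quartile (1.20). Among 5 class I-like molecules tested, 1 was called: Azgp1, a secreted zinc-binding relative of class I, fell from a mean of 441 to 117 FPKM (log2 -1.99, limma FDR 0.000932).

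Of 10 regulators of class I transcription, 3 were called higher. Nlrc5, the class I transactivator, read 2.64, 2.46 and 0.594 FPKM in OEx and 0.198, 0.10 and 0.271 in Ctrl (log2 1.19, limma FDR 0.0160), a call lost without OEx replicate 1 (limma FDR 0.0524) or OEx replicate 2 (limma FDR 0.0556). With a Ctrl mean of 0.190 FPKM, Nlrc5 passed the filter only through its level in OEx. Nfkb1, a subunit of NF-kB, and Creb1, which binds cyclic AMP response elements, rose in all OEx mice alike, by 1.16 and 1.18 (limma FDR 8.3e-05 and 0.000254). As deposited, Rela, Rfxank and Rfxap of the same list were lower in all OEx mice than in Ctrl, though not called. Their log2 differences were -0.30, -0.42 and -0.36 (limma FDR 0.0257, 0.0148 and 0.0215). On library totals these differences were 0.47, 0.21 and 0.36. Rela read 35.0, 36.3 and 35.7 FPKM in OEx and 45.9, 47.0 and 39.5 in Ctrl. At the FDR alone 5 regulators were higher, beside 30.7% of all rows, and 3 lower. Of 6 interferon receptor and kinase genes tested, 1 was called, the kinase Jak2. It read 12.2, 12.0 and 12.3 FPKM in OEx against 3.21, 3.24 and 4.08 in Ctrl (log2 1.55, limma FDR 5.0e-05). At the FDR alone 2 of the 6 were higher, beside 30.7% of all rows, and 1 lower, the receptor gene Ifngr1. Ifngr1 read 32.8, 30.9 and 27.0 FPKM in OEx against 49.9, 50.4 and 45.1 in Ctrl (log2 -0.67, limma FDR 0.00119). On library totals Ifngr1 was at 0.10.

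Only Ifng and Ifnb1 were listed among the interferon ligands. Ifng was listed at 0 in 5 mice and at 0.0774 FPKM in OEx replicate 1, and Ifnb1 was at 0 in 5 mice and at 0.117 in OEx replicate 2. Of 14 interferon response genes listed, 13 were tested and 2 were called higher, Ifit1 (log2 1.34, limma FDR 0.00438) and Irgm1 (log2 1.09, limma FDR 0.000460). Ifit1, with a Ctrl mean of 0.568 FPKM, passed the filter only through OEx. Mx1 was lower, at 1.63, 1.53 and 0.468 FPKM in OEx against 3.17, 2.98 and 3.36 in Ctrl (log2 -0.96, limma FDR 0.00971). As deposited, Usp18 was also lower in all OEx mice than in Ctrl (log2 -0.34, limma FDR 0.121), and it was at 0.13 on library totals. At the FDR alone 4 of the 13 were higher, beside 30.7% of all rows, and 1 lower. All 14 interferon response genes were lower in OEx replicate 3 than in OEx replicates 1 and 2, beside 30.8% of all rows tested. So were 7 of the 10 members (H2-Q4, H2-Q5, H2-Q7, H2-K1, H2-D1, Tap1 and Tap2), while H2-Q10, B2m and Tapbp were not. Without OEx replicate 3 the count of interferon response genes called was 5, and 7 without replicate 3 of both groups.

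**Figure D5:**
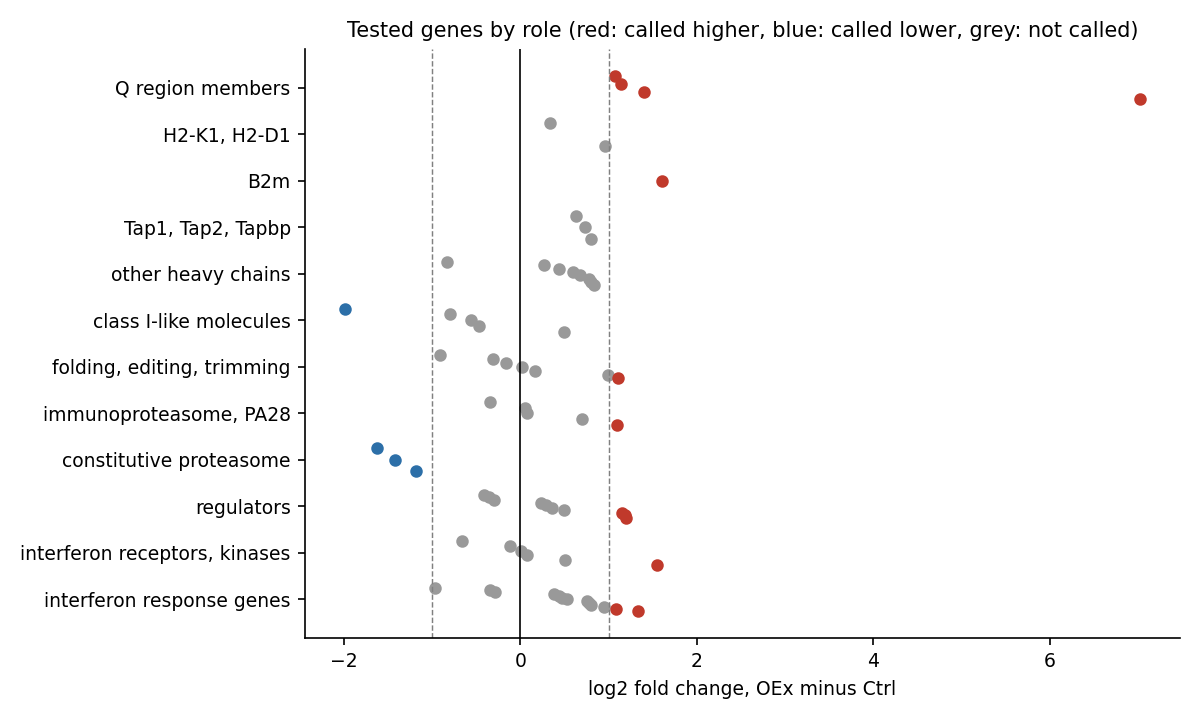
Log2 fold change (OEx minus Ctrl, deposited scaling) of each tested gene, grouped by role, with red for called higher, blue for called lower, grey for not called and dashed lines at 2-fold. H2-Q10 stands at 7.02, the next highest gene plotted is B2m at 1.61, and the 3 constitutive proteasome subunits are at -1.19 or below.

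The genes whose pattern over the 6 mice was most like that of H2-Q10 on the log2 scale were Psip1, 4933431E20Rik, Ano1, Lrrfip1 and Pds5a, with Pearson correlations of 0.9997 to 0.9998. Most like the mean of H2-K1, H2-D1 and B2m were Phip, Gipc2, Fam3c, Nin and Zfp638, at 0.9996 to 0.99998. These describe the contrast of the groups more than a particular likeness, since 3136 and 3093 rows had a correlation above 0.9 with the respective pattern over the 6 libraries.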

How the data were processed

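RNA was taken from the whole AP of 3 OEx and 3 Ctrl mice after secretions were cleaned away, and sequenced by the authors. The authors deposited FPKM values, 1 table of 55076 rows per mouse, and the submitters' processing notes name CASAVA, HISAT2 2.0.5, featureCounts 1.5.0-p3 and StringTie 1.3.3b. The genome build, annotation and use of strand were not given in the sources used here. Whole reads were recovered from the FPKM values with GENCODE exon lengths (96.9% to 97.5% of values under 1000 reads came out whole within 0.05 reads), and 3 reads equal 0.161 to 0.203 CPM. Such floors cover counting error only. A row was tested if its mean over the mice reached 1 FPKM, which left 12833 rows (280 of them without a gene name), fitted with limma 3.58.1 (R 4.3.3) on log2(FPKM + 1) with group as the only term, and FDR is by Benjamini and Hochberg over all of them. Among the genes whose calls are given, H2-Q10, H2-Q5, Nlrc5, Cd8a, Cd8b1 and Ifit1 had a Ctrl mean under 1 FPKM. They passed this filter only through their levels in OEx, so their calls are given as a description. The fit was tested on simulated data. p-values measure only the spread between these mice, and nothing states their litters or extraction days. The members and gene lists were chosen with earlier results of these data known. Named genes were all members, the called genes with the largest log2 difference or, where none was called, the most abundant ones of each pathway list, and the 5 genes most like each of the patterns. Others (H2-T22, H2-Q6, Psmb9, Psmb10, Psme2, Calr, Canx, Lnpep, Lyz2, Cd8a, Cd8b1, Ifng, Ifnb1, Ifngr1, Psme1, Alb, Fgb, Serpina1a, Ttr, Hp, Apoa2, H2-Q1, H2-Bl, Col1a1, Col1a2, Rela, Rfxank, Rfxap, Mx1 and Usp18) were named after their values were seen. Promoter windows were RefSeq's. The scaling, filter, pseudocount, fold criterion, replicate block, voom and left-out mice were varied.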

Additional observations from a re-analysis of the deposited data

How the results depend on the processing

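The count of members called was 5 as reported, 10 on library totals, 8 on library totals without the 20 most abundant genes, 3 with the replicate number as a block and 9 with no fold criterion, and it ranged from 2 to 6 when 1 mouse was left out. The count of other pathway genes called was 10 (6 higher, 4 lower). It became 18 on library totals (17 higher, 1 lower) and 27 with no fold criterion (15 higher, 12 lower). When 1 mouse was left out it was 9 to 13. The count of interferon response genes called was 2, both higher. It became 4 with a pseudocount of 0.1 (3 higher, 1 lower) and 7 on library totals, all higher. It was 4 without the 20 most abundant genes, all higher, and 5 in limma-voom on recovered reads (4 higher, 1 lower). With no fold criterion it was 5 (4 higher, 1 lower). Without replicate 3 of both groups (an alternative chosen after seeing the data) it was 7, all higher. When 1 mouse was left out it was 2 to 5, with 1 lower without OEx replicate 1 or OEx replicate 2. The shares of all rows in the scalings are given above, and those for the other settings are not all given. No member's log2 difference changed sign in any alternative run. The replicate numbers did not pair the mice: deviations of mice with the same number correlated at -0.31 to -0.19. The block left the other pathway count at 10 and the interferon response count at 2, and its lost members were H2-Q5 and H2-Q7. When each mouse had to have 10 or more reads, H2-Q5 could not be tested. Depth limits H2-Q5 in Ctrl (4 to 22 reads) and H2-Q10 in Ctrl (19 to 79 reads), whose log2 differences depend on the pseudocount.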

Other observations

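Some heavy chain genes outside the members were high in a single mouse. H2-Q1 read 4.11 FPKM in OEx replicate 3 and between 0.138 and 0.459 FPKM in the other 5 mice. H2-Bl read 3.99 FPKM in OEx replicate 3, 0.477 and 0.650 in the other OEx mice, 1.57 and 1.75 in Ctrl replicates 1 and 2, and was listed at 0 in Ctrl replicate 3. The mouse that was high for both was also the OEx mouse in which H2-Q5 and H2-Q7 were lowest. Genes of the H2 region differ in sequence and number between mouse strains, and no strain was given in the labels used here; its part in these values was not tested.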
